A study of Rattus norvegicus with 4 samples.

Results

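The 10 immediate early transcription factor genes described here were followed across 4 libraries of rat mesenchymal stem cells: Fos, Fosb, Fosl1, Fosl2, Jun, Junb, Jund, Egr1, Nr4a1 and Ier2. They were chosen by gene symbol, as genes of the AP-1, Egr and Nr4a groups together with Ier2; the choice was made with earlier results of these data known. Each symbol matched 1 row, so 10 of the 34034 listed genes are described, and all 10 passed the minimum of 40 counts over the 4 libraries that left 12228 genes for comparison. The cells came from rat femurs and all were kept in osteogenic induction medium, a medium that drives bone cell formation. The young control was young cells given vehicle. The senescent control was senescent cells given the same. A further library of senescent cells received trichostatin A (TSA), which blocks histone deacetylases, and the last received TSA together with phenamil, a relative of the sodium channel blocker amiloride. Treatment lasted 24 h and all samples are labelled day 1. The sample labels give phenamil as the second compound and the design text gives benzyl ether; the labels are followed here. Doses, the way the cells became senescent, and the age and number of animals are not stated in the labels, and there was no library with phenamil only.

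Immediate early genes are switched on by growth factors, stress or mechanical stimulation from factors already present in the cell, without new protein synthesis, and most of their transcripts are short-lived. Fos and Jun proteins share a basic leucine zipper and pair to form AP-1: Jun proteins pair with each other or with a Fos protein, whereas Fos proteins need a Jun partner. Serum response factor, bound to the CArG box with ternary complex factors that MAP kinases phosphorylate, and CREB, bound to the cyclic AMP response element, are the classical activators. In bone, Fosl1 and Fosl2 promote bone matrix formation and Junb supports osteoblast proliferation.

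The promoters of the members are shown first because these elements are the usual entry point of the stimuli above. RefSeq promoter sequences of the build GRCr8, from 250 bases before to 50 bases after the listed start, were found for 8 of the 10 genes; those of Fos and Jun were not used here. The 5 printed below belong to 3 genes whose levels differed between libraries (Nr4a1, Fosl1 and Egr1) and 2 abundant genes whose levels were nearly flat (Ier2 and Jund). Each runs 5′ to 3′ on the strand of the gene. Capitals mark matches, on either strand, to the cyclic AMP response element TGACGTCA, its shorter core CGTCA, the AP-1 element TGANTCA, or the CArG box. The shorter core lies inside the full element and was added after the sequences were seen.
Nr4a1, chr7:134259888-134260187, plus strand: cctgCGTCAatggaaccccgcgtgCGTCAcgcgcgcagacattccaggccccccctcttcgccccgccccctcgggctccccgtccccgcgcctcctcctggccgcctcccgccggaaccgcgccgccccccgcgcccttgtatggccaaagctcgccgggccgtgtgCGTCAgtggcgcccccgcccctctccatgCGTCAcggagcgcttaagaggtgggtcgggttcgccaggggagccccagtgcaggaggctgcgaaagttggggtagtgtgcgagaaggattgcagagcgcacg
Fosl1, chr1:212183635-212183934, plus strand: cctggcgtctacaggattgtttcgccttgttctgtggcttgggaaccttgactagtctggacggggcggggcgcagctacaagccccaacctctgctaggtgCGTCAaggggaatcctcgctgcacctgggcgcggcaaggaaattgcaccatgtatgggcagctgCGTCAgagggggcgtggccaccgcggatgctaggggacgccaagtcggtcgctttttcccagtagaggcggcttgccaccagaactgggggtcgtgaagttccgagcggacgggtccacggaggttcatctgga
Egr1, chr18:26736828-26737127, plus strand: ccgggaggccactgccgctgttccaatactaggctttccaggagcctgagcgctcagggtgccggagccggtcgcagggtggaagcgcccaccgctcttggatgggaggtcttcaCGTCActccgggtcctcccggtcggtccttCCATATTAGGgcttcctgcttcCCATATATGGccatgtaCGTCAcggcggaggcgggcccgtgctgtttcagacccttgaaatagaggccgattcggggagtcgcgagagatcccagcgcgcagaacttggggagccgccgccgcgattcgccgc
Ier2, chr19:40399123-40399422, plus strand: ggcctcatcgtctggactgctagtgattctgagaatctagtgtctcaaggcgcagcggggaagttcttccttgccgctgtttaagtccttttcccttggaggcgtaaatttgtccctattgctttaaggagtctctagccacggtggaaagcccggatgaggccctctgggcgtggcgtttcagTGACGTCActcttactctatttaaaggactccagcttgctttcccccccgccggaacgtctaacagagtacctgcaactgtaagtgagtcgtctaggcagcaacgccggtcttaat
Jund, chr16:18769722-18770021, minus strand: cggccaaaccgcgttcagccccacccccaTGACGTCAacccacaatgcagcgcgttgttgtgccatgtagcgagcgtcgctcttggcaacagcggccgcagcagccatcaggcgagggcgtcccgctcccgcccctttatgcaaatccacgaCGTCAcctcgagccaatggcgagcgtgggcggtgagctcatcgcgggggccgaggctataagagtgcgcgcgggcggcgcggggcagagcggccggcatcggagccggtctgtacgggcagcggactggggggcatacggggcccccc

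Egr1 was the one gene of the 8 with the CArG box, and it had 2, beginning 105 and 83 bases before the start; 1.64% of the 33469 promoters in the table hold this box. The full cyclic AMP response element was found in Ier2 and Jund, 66 and 221 bases before the start, against 1.83% of all promoters. The core CGTCA was found in 6 of 8 promoters, against 21.2% of all, with 4 matches in Nr4a1, 3 in Jund, 2 each in Fosl1, Egr1 and Ier2, and 1 in Junb. Each full element counts as 2 of these, 1 per strand: both matches in Ier2 and 2 of the 3 in Jund. As the core was added after the sequences were seen, and the shares were not matched for base composition, no enrichment is read from it. No match to TGANTCA lay in any of the 8 windows, against 7.33% of all promoters. The EGR element GCGNGGGCG was matched in Fosl2, Jund and Nr4a1, against 4.98% of all promoters. The GC box GGGCGG, which can overlap it, was matched in Fosl1, Fosl2, Jund and Nr4a1, against 33.1%. The TATA box TATAAA was matched in Junb, 49 bases before the start, and on the opposite strand in Fosb, 180 bases before the start, against 14.2% of all. These matches describe letters in the windows and do not show binding.

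Levels below are CPM, counts per 1000000 of the scaled size of their library, from a kit that reads tags at the 3′ ends of polyadenylated transcripts, so they are not divided by transcript length. Ratios of scaled counts between 2 libraries carry a 95% exact counting interval in parentheses. A gene is called higher or lower when that interval lies wholly above or below 1. Each condition had 1 library, so there is no replicate spread and no test, and every comparison describes 2 libraries. Intervals cover counting error only. Fewer cells that express a gene and less RNA per cell cannot be told apart. Total counts were 9873894 to 11024227, lowest in the TSA library, where 1 count is worth 0.101 CPM. All 8 stromal markers had at least 40 counts over the 4 libraries, with sums of 2312 to 2653 CPM. Itgb1 and Thy1 made up most of each sum, whereas Eng had 18 to 23 and Vcam1 9 to 23 counts per library. Markers of blood and immune cells summed to 5.14 to 9.17 CPM, with Cd14 the one marker of 6 with at least 40 counts and Adgre1 and Itgam at 0 in every library. Endothelial markers summed to at most 0.381 CPM and red cell markers to at most 1.62 CPM.

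The 10 genes fell into an abundant and a scarce set (plot of levels by library). Egr1, Jund and Ier2 lay between 168 and 224 CPM in every library, Fosl2, Junb and Jun between 43.4 and 86.2 CPM, and Fos, Fosl1, Nr4a1 and Fosb between 0.706 and 12.3 CPM. Summed, the 10 genes took 813 CPM in the young control, 797 CPM in the senescent control, 760 CPM with TSA and 783 CPM with TSA + phenamil. The sum with TSA was 0.955 (0.926 to 0.985) times that of the senescent control, and Egr1 alone accounted for more counts than any other member in 3 of the 4 libraries.

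**Figure D1:**
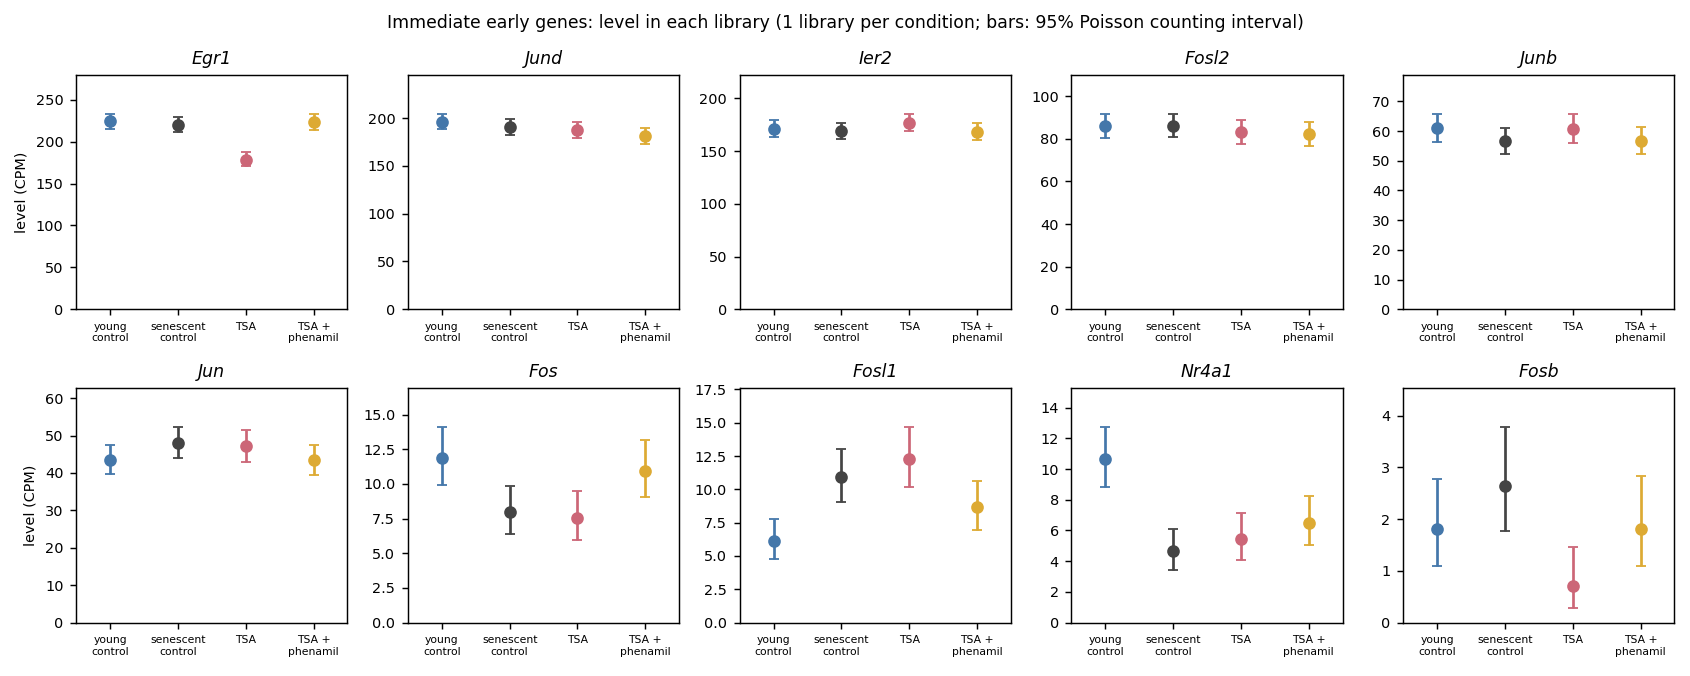
Level of each gene in CPM (y axis, from 0) in the 4 libraries (x axis), ordered from abundant to scarce; points are single libraries and bars are 95% Poisson counting intervals. Egr1 drops in the TSA library alone, from 220 to 179 CPM against the senescent control, whereas Nr4a1 is highest in the young control at 10.6 CPM.

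Of the Fos family, Fosl2 (Fra-2), which lacks the strong transactivating end of Fos, was by far the most abundant and was flat. It stood at 85.8 CPM in the young control, 86.2 CPM in the senescent control, 83.2 CPM with TSA and 82.1 CPM with TSA + phenamil. The highest library was 1.05 (0.956 to 1.15) times the lowest, so no order of the libraries could be read. Fosl2 made up 79.3 to 81.2% of Fos family counts, and the family as a whole summed to 104 to 108 CPM.

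Fos, the classical immediate early partner of Jun, stood at 11.9 CPM (132 counts) in the young control, 7.99 CPM (88 counts) in the senescent control, 7.56 CPM (75 counts) with TSA and 11.0 CPM (115 counts) with TSA + phenamil. The young control and the library with both compounds were high, the senescent control and TSA libraries low, and neighbours within each pair had ratios whose intervals included 1. The senescent control was at 0.671 (0.507 to 0.886) times the young level. TSA + phenamil was at 1.37 (1.03 to 1.83) times the senescent control and 1.45 (1.07 to 1.96) times TSA, and at 0.920 (0.710 to 1.19) times the young control. TSA alone was at 0.946 (0.686 to 1.30) times the senescent control.

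Fosl1 (Fra-1), a slower member of the family that AP-1 itself induces, ran the other way. It stood at 6.13 CPM (68 counts) in the young control, 10.9 CPM (120 counts) in the senescent control, 12.3 CPM (122 counts) with TSA and 8.67 CPM (91 counts) with TSA + phenamil. The young control was the lowest library and was set apart from the next by 1.41 (1.02 to 1.96). The senescent control was at 1.78 (1.31 to 2.43) times the young level and TSA at 2.01 (1.48 to 2.74) times. TSA + phenamil was at 0.795 (0.599 to 1.05) times the senescent control, with an interval that included 1, and at 0.705 (0.531 to 0.932) times TSA.

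The make-up of the family therefore differed between libraries while its sum did not move far. Fos took 11.3% (exact binomial 95% interval 9.51 to 13.2) of Fos family counts in the young control, 7.42% (5.99 to 9.06) in the senescent control, 7.29% (5.78 to 9.05) with TSA and 10.6% (8.81 to 12.6) with both compounds. Fosl1 took 5.80% (4.53 to 7.30), 10.1% (8.46 to 12.0), 11.9% (9.94 to 14.0) and 8.37% (6.79 to 10.2) in the same order. Within each library, which needs no scaling, there were 1.94 (1.44 to 2.64) Fos counts per Fosl1 count in the young control, 0.733 (0.551 to 0.974) in the senescent control, 0.615 (0.455 to 0.826) with TSA and 1.26 (0.952 to 1.68) with both compounds. Fos thus exceeded Fosl1 in the young control, was below it in the senescent control and the TSA library, and was not separated from it by counting error in the library with both compounds.

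**Figure D2:**
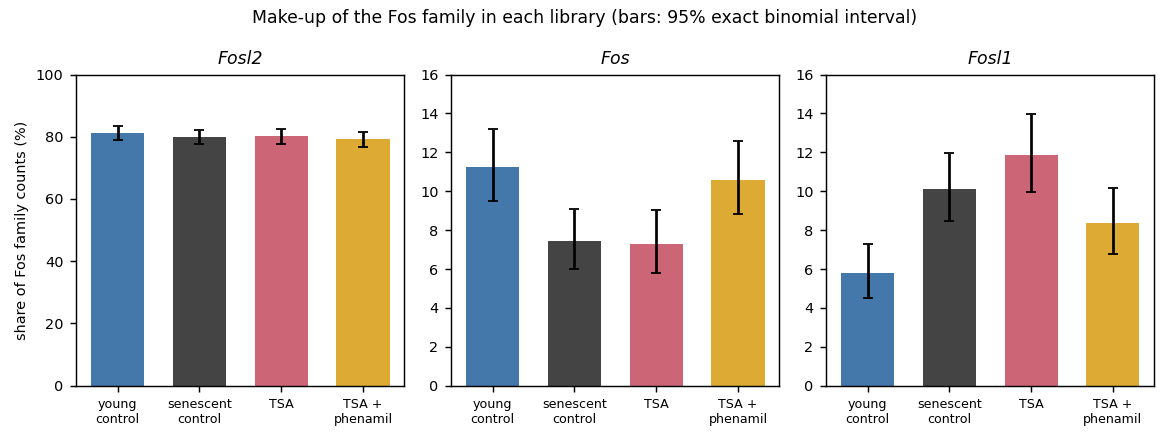
Share of Fos family counts (y axis, percent, from 0; the scale of Fosl2 differs) taken by Fosl2, Fos and Fosl1 in the 4 libraries (x axis), with 95% exact binomial intervals. Fosl2 stays at 79.3 to 81.2% in each library, while Fos takes 11.3 and 7.42%, and Fosl1 5.80 and 10.1%, in the young and the senescent control.

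Fosb, a close relative of Fos, was near the lower limit of these libraries, at 1.80 CPM (20 counts) in the young control, 2.63 CPM (29 counts) in the senescent control, 0.706 CPM (7 counts) with TSA and 1.81 CPM (19 counts) with TSA + phenamil. The TSA library stood below the other three, whose intervals overlapped. TSA was at 0.268 (0.0991 to 0.625) times the senescent control, and TSA + phenamil at 2.56 (1.03 to 7.22) times TSA. A reference gene of the build GRCr8, LOC103691049, overlaps Fosb; it had 0 counts here.

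The 3 Jun genes differed little. Jund, the Jun gene usually found in resting cells, stood at 196, 191, 188 and 181 CPM in the library order used for Fosl1 above (young, senescent, TSA, TSA + phenamil). No neighbours in that order were set apart, but both ends were, since TSA + phenamil was at 0.924 (0.869 to 0.983) times the young control. With an assumed coefficient of variation between cultures of 0.1 that interval included 1 (0.696 to 1.23). Junb, which often opposes Jun, stood at 60.9, 56.5, 60.8 and 56.6 CPM in the same order, the highest 1.08 (0.966 to 1.21) times the lowest. Jun, the founding member, stood at 43.5, 48.0, 47.1 and 43.4 CPM, the highest 1.11 (0.974 to 1.26) times the lowest. Jund took 63.5 to 65.3% of Jun family counts, Junb 19.1 to 20.6% and Jun 14.5 to 16.3%.

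Egr1, a zinc finger factor of the immediate early response, was among the most abundant members and was set apart in 1 library. It stood at 224 CPM (2489 counts) in the young control, 220 CPM (2424 counts) in the senescent control, 179 CPM (1771 counts) with TSA and 223 CPM (2345 counts) with TSA + phenamil. The TSA library was low, and the other three were not separated from each other by counting error. TSA was at 0.811 (0.763 to 0.863) times the senescent control and TSA + phenamil at 1.25 (1.18 to 1.33) times TSA. Beside this, ribosomal protein genes took 8.77% of counts in the TSA library and 7.43 to 8.02% in the others. Stromal markers had their lowest sum there, but did not move together. Their counts are given unscaled, and total counts were 11024227 in the senescent control and 9873894 with TSA. From the senescent control to TSA, Itgb1, which weighs most in the sum, went from 17227 to 12799 counts. Thy1 went from 8301 to 7752 and Pdgfrb from 427 to 255. Nt5e went from 119 to 163 and Vcam1 from 10 to 22. The part of these differences in the result was not tested.

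Nr4a1 (Nur77), an orphan nuclear receptor, showed the largest difference of the 10 between the senescent and young controls. It stood at 10.6 CPM (118 counts) in the young control, 4.63 CPM (51 counts) in the senescent control, 5.44 CPM (54 counts) with TSA and 6.48 CPM (68 counts) with TSA + phenamil. The young control was high, 1.64 (1.21 to 2.25) times the next library, and the 3 senescent libraries were not separated from each other by counting error. TSA + phenamil was at 1.40 (0.958 to 2.05) times the senescent control and still at 0.609 (0.445 to 0.827) times the young control. Of its relatives, Nr4a2 was at 1.08 (0.863 to 1.34) times the young level in the senescent control. Nr4a3 had 10, 3, 2 and 6 counts in the order of libraries above, too few to compare. Both were looked up after the values of Nr4a1 were seen.

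Ier2, a nuclear protein induced together with the other immediate early genes, was the flattest of the abundant genes together with Fosl2. It stood at 171, 169, 177 and 168 CPM in the library order used for Fosl1 above (young, senescent, TSA, TSA + phenamil), and the highest was 1.05 (0.985 to 1.13) times the lowest.

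The comparison of untreated senescent with young cells asked what senescence changes without treatment. Fosl1 was higher, Fos and Nr4a1 were lower, and 7 members were neither. That is 1 of 10 higher where 18.1% of all 12228 genes were higher, and 2 of 10 lower where 16.7% were lower, so the counts are near the background. Only Nr4a1 lay wholly beyond 1.5-fold, at 0.435 (0.307 to 0.609), as did 1.35% of all genes in either direction; 1.32% of all genes had a lower ratio than Nr4a1 and 96.5% a lower ratio than Fosl1. The median log2 ratio of the 10 was -0.02, against 0.005 over all genes. When the intervals were widened for a coefficient of variation between cultures of 0.2, an assumed value, the calls of Fos (0.362 to 1.24) and Fosl1 (0.947 to 3.33) were lost.

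The comparison of TSA with the senescent control asked what TSA alone changes. Egr1 and Fosb were lower, none was higher and 8 were neither, where 14.7% of all genes were lower and 15.7% higher. Fosb, with 7 counts, was the only member wholly beyond 1.5-fold, as were 1.07% of all genes. The median log2 ratio was -0.03, against -0.003 over all genes. The call of Egr1 was lost with an assumed coefficient of variation of 0.1 (0.611 to 1.08).

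The comparison of TSA + phenamil with the senescent control, which shares that control with the comparison above, asked what both compounds change together. Fos was higher, none was lower and 9 were neither, where 15.8% of all genes were higher and 15.9% lower. No member lay wholly beyond 1.5-fold, against 1.09% of all genes. The median log2 ratio was -0.04, against -0.0006 over all genes. The call of Fos was lost with an assumed coefficient of variation of 0.1 (0.926 to 2.03).

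The comparison of TSA + phenamil with TSA is the pair that differs by phenamil as labelled. It shares the TSA library with the comparison of TSA with the senescent control. Fos, Fosb and Egr1 were higher and Fosl1 was lower, with 6 neither. That is 3 of 10 higher where 16.6% of all genes were higher, and 1 of 10 lower where 17.1% were lower. With so few genes these counts are not read as a result about the members. Fosb and Egr1 were lowest in the shared TSA library, so their calls here and in that other comparison are not independent. No member lay wholly beyond 1.5-fold, against 1.82% of all genes. The median log2 ratio was -0.03, against 0.001 over all genes. With an assumed coefficient of variation of 0.1 only Fosb (1.03 to 6.37) kept its call, and with 0.2 none did. These intervals use a normal approximation on the log scale in place of the exact one. For Fosb, with 7 counts under TSA, the result was narrower than the exact interval (1.03 to 7.22). Its kept call therefore does not show that it is firmer than the others.

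**Figure D3:**
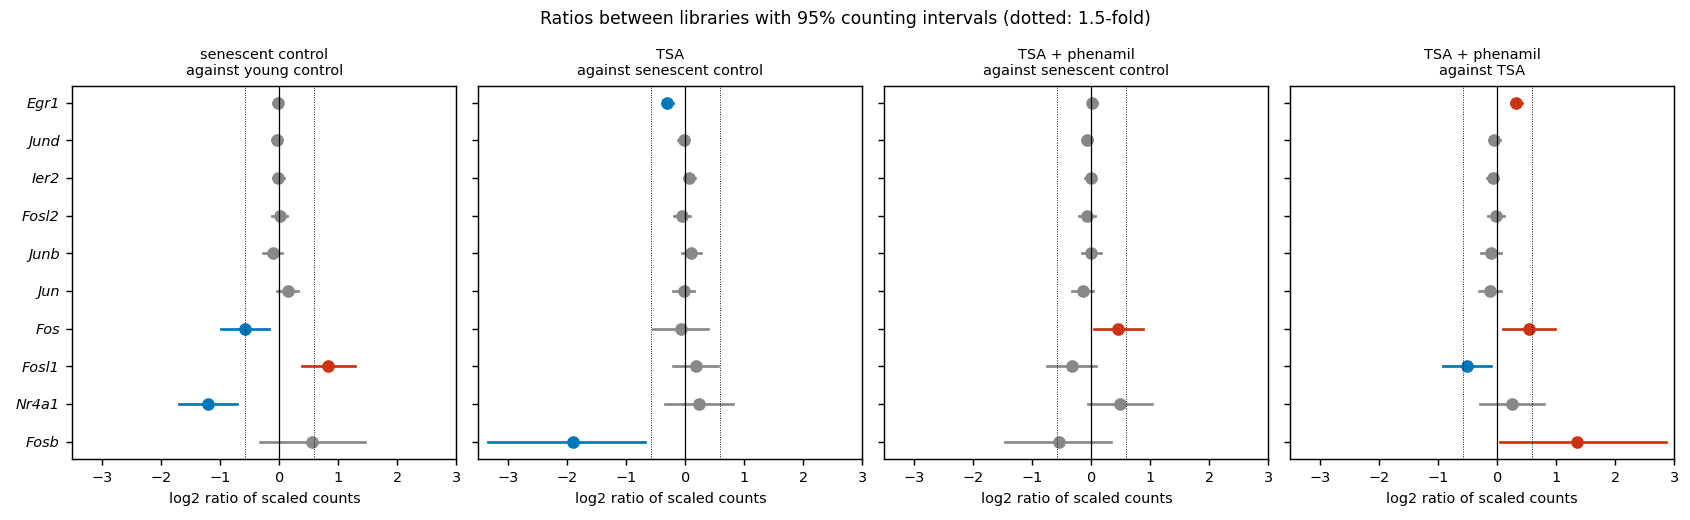
Log2 ratio of scaled counts (x axis) for the 10 genes (y axis) in the 4 comparisons, with 95% counting intervals; red is higher, blue lower, grey neither, and dotted lines mark 1.5-fold. Jund, Ier2, Fosl2, Junb and Jun sit near 0 in every panel, and Nr4a1 in the first panel and Fosb in the second lie wholly beyond the dotted line.

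Counting intervals narrow with abundance, so the share of genes called depends on it. Among the 8046 genes with at least 400 counts, 21.3% were higher and 18.9% lower in the senescent against the young control, and 18.2% and 17.6% in TSA against the senescent control. Of the members with at least 400 counts, Fosl2, Jun, Junb and Ier2 were not called in any of the 4 comparisons, nor was Jund.

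**Figure D4:**
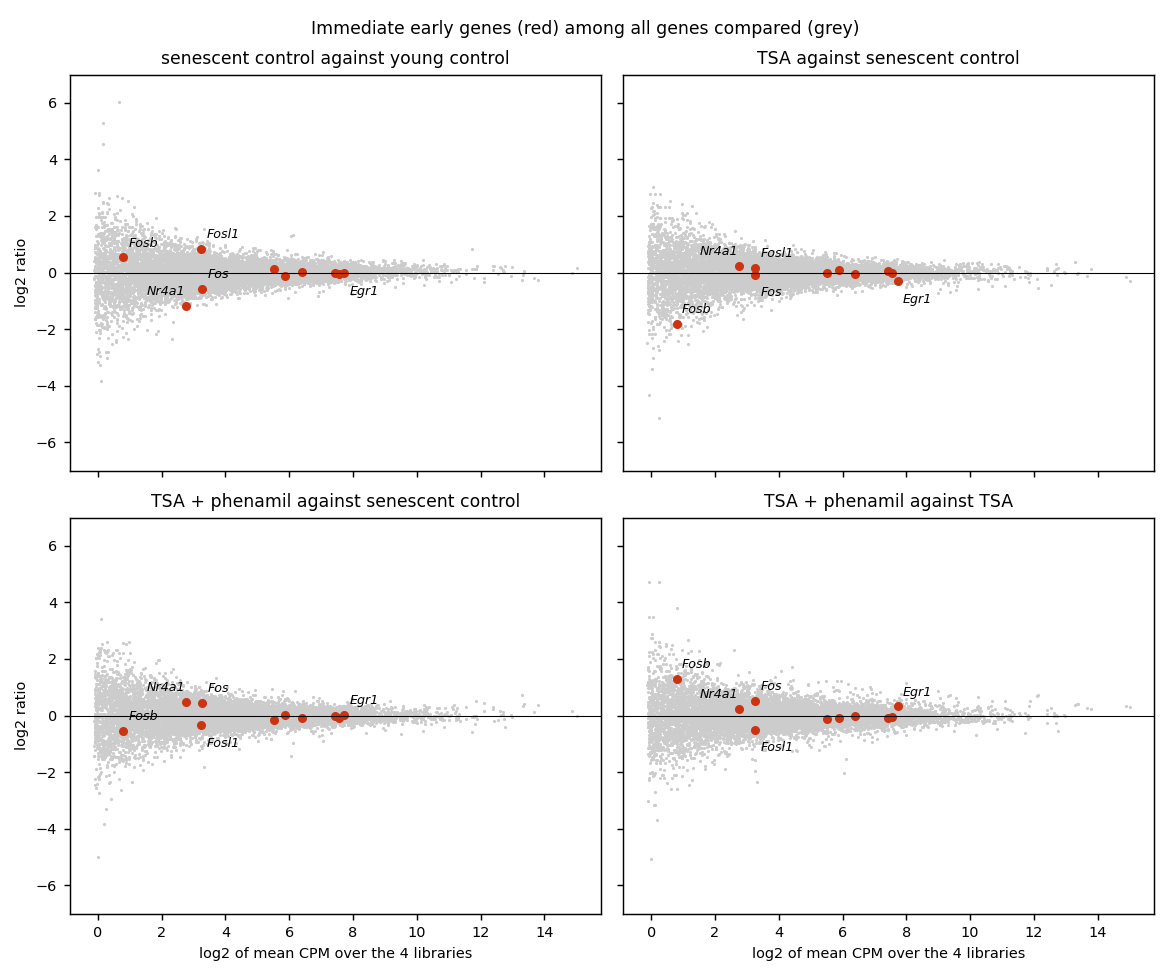
Log2 ratio (y axis) against log2 of the mean CPM over the 4 libraries (x axis) for all 12228 genes compared (grey) and the 10 genes (red), in the 4 comparisons. The unlabelled red points are Jun, Junb, Jund, Fosl2 and Ier2, which stay near 0, and Nr4a1 lies at the lower edge of the cloud in the first panel.

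The 5 lists of genes around AP-1 were counted in the same way, each beside the share of all 12228 genes called higher and lower; the medians over all genes lay between -0.003 and 0.005. Of 36 other immediate early genes, 33 could be compared. In the senescent against the young control 8 were higher and 8 lower (of all genes, 18.1% and 16.7%), with a median log2 ratio of -0.09. Egr3, a relative of Egr1, was lower at 0.460 (0.341 to 0.616), from 13.6 to 6.26 CPM, and Klf4 was higher at 1.46 (1.16 to 1.85). In TSA against the senescent control 8 were higher and 4 lower (of all genes, 15.7% and 14.7%), with a median of 0.08. Zfp36, whose product destabilises messenger RNAs of many early genes, was higher at 1.73 (1.25 to 2.41), and Socs3, an inhibitor of cytokine signalling, was lower at 0.583 (0.466 to 0.728). In TSA + phenamil against the senescent control 6 were higher and 7 lower (of all genes, 15.8% and 15.9%), with a median of -0.005. Egr2 was higher at 2.56 (1.40 to 4.90), from 16 to 39 counts, and Egr3, added here after its values were seen, was at 1.75 (1.29 to 2.39). In TSA + phenamil against TSA 3 were higher and 8 lower (of all genes, 16.6% and 17.1%), with a median of -0.04, Socs3 at 1.97 (1.59 to 2.46) and Ptgs2, the inducible cyclooxygenase, at 0.580 (0.497 to 0.676). Egr3 thus stood at 13.6, 6.26, 8.47 and 11.0 CPM across the libraries, whereas Egr1 was low in the TSA library only. With an assumed coefficient of variation of 0.1 fewer calls were left in these 4 comparisons. They became 1 higher and 3 lower, 5 and 2, 3 and 0, and 1 and 4. The calls named in this list were kept.

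Of 14 other bZIP factors that pair with or resemble AP-1 proteins, 12 could be compared. In the senescent control 1 was higher and 6 lower than in the young control (of all genes, 18.1% and 16.7%), with a median of -0.25, including Mafg, a small Maf protein, at 0.792 (0.723 to 0.868). With TSA 2 were higher and 2 lower than in the senescent control (of all genes, 15.7% and 14.7%), with a median of -0.06, and Crem, a cyclic AMP responsive factor with repressor isoforms, was at 1.79 (1.32 to 2.45). With both compounds 4 were higher and none lower than in the senescent control (of all genes, 15.8% and 15.9%), with a median of 0.16, among them Atf4 at 1.16 (1.12 to 1.21). Against TSA alone 6 were higher and 1 lower (of all genes, 16.6% and 17.1%), with a median of 0.18. The one lower was Crem at 0.602 (0.442 to 0.816). With a coefficient of variation of 0.1 the calls became 0 higher and 1 lower, 1 and 0, 1 and 0, and 1 and 1. Crem kept its calls, and those of Mafg (0.592 to 1.06) and Atf4 (0.880 to 1.54) were lost.

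All 23 kinases and factors that drive immediate early genes could be compared. In the senescent control 2 were higher and 12 lower than in the young control (of all genes, 18.1% and 16.7%), with a median of -0.17. The histone acetyltransferase genes Crebbp, at 0.756 (0.706 to 0.809), and Ep300, at 0.723 (0.613 to 0.851), were lower, and Mapk7, which encodes ERK5, was higher at 1.23 (1.04 to 1.46). With TSA 5 were higher and 3 lower than in the senescent control (of all genes, 15.7% and 14.7%), with a median of 0.03. With both compounds 7 were higher and 3 lower than in the senescent control (of all genes, 15.8% and 15.9%), with a median of 0.08, and the p38 kinase gene Mapk14 was at 1.28 (1.16 to 1.41). Against TSA alone 4 were higher and 4 lower (of all genes, 16.6% and 17.1%), with a median of 0.04, and Srf, which encodes serum response factor, was at 1.18 (1.09 to 1.29). Nearly all of these calls were lost with a coefficient of variation of 0.1, which left 0 higher and 1 lower, 0 and 0, 0 and 1, and 0 and 1. Ep300 kept its call (0.524 to 0.996), and Crebbp, Mapk7, Mapk14 and Srf did not.

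Of 19 feedback inhibitors and corepressors, 18 could be compared. In the senescent control 3 were higher and 2 lower than in the young control (of all genes, 18.1% and 16.7%), with a median of 0.002, and Dusp6, the phosphatase of ERK kinases, was at 1.29 (1.21 to 1.38). With TSA 4 were higher and 1 lower than in the senescent control (of all genes, 15.7% and 14.7%), with a median of 0.15, with Dusp6 at 1.39 (1.31 to 1.47), Spry2 at 1.28 (1.10 to 1.49) and the Egr corepressor Nab1 at 0.831 (0.723 to 0.954). With both compounds 2 were higher and 2 lower than in the senescent control (of all genes, 15.8% and 15.9%), with a median of -0.06. Against TSA alone 2 were higher and 4 lower (of all genes, 16.6% and 17.1%), with a median of -0.03, and Dusp6 was at 0.660 (0.623 to 0.699). Dusp6 stood at 160 CPM in the young control, 206 CPM in the senescent control, 286 CPM with TSA and 189 CPM with TSA + phenamil. With a coefficient of variation of 0.1 the calls became 0 and 0, 1 and 0, 0 and 0, and 0 and 2. The calls of Spry2, Nab1 and of Dusp6 between the senescent and young controls (0.973 to 1.72) were lost. Dusp6 was also lower with both compounds than in the senescent control, at 0.916 (0.862 to 0.973). That call was lost too (0.689 to 1.22). The calls of Dusp6 in TSA against the senescent control and in TSA + phenamil against TSA were kept.

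Of 22 genes known to be driven by AP-1 or Egr1, 19 could be compared. In the senescent control 9 were higher and 3 lower than in the young control (of all genes, 18.1% and 16.7%), with a median of 0.18, led by Spp1 at 1.80 (1.77 to 1.83) and Ccnd1, which encodes cyclin D1, at 1.36 (1.33 to 1.40), while the matrix protease gene Mmp9 was lower at 0.659 (0.499 to 0.867). With TSA 8 were higher and 5 lower than in the senescent control (of all genes, 15.7% and 14.7%), with a median of 0.04. Nqo1 was higher at 1.36 (1.28 to 1.44) and Hmox1 at 1.33 (1.26 to 1.41). Vegfa was lower at 0.693 (0.602 to 0.797). With both compounds 3 were higher and 10 lower than in the senescent control (of all genes, 15.8% and 15.9%), with a median of -0.07, and Ccnd1 was at 0.689 (0.671 to 0.707). Against TSA alone 3 were higher and 10 lower (of all genes, 16.6% and 17.1%), with a median of -0.10, and Ccnd1 was at 0.619 (0.603 to 0.635). Ccnd1 stood at 970, 1322, 1472 and 911 CPM across the libraries in the order used above. Among all genes with at least 400 counts, 19.1% and 20.9% were lower in these last comparisons. With a coefficient of variation of 0.1 fewer calls of the list were left. They became 2 higher and 1 lower, 4 and 1, 0 and 2, and 0 and 4. The calls named here were kept.

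**Figure D5:**
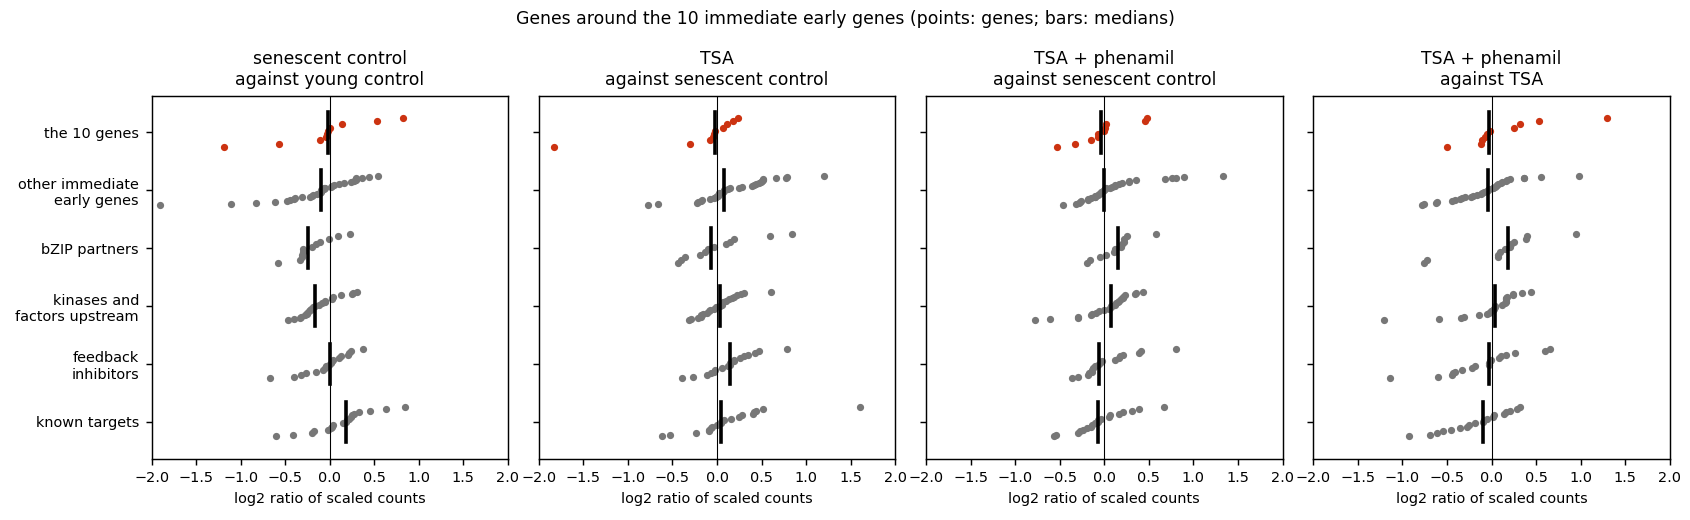
Log2 ratio of scaled counts (x axis) of the 10 genes (red) and of the 5 surrounding lists (grey) in the 4 comparisons; points are genes and black bars are list medians. Medians of the 10 genes lie between -0.04 and -0.02, and the bZIP partners have a median of -0.25 in the first panel and 0.18 in the last.

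For the 3 members with the widest range between libraries, the nearest patterns were sought among 9641 other genes with at least 200 counts, by Euclidean distance of log2 CPM centred on each gene's mean over the 4 libraries. Nearest to Fosl1 were Stard10 at a distance of 0.08, Fbxl14 at 0.10 and Ndor1 at 0.11. Nearest to Nr4a1 were Sh3pxd2b at 0.18, Gsta6 at 0.22 and LOC120100962 at 0.25. Nearest to Fosb were Lonp1 at 0.34, Itga8 at 0.38 and LOC120093124 at 0.39. With 4 libraries and so many candidates, close matches are common, and these names describe the profiles only.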

How the data were processed

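Per the labels' protocols, TRIzol RNA was turned into QuantSeq 3′ FWD libraries, sequenced single-end to 100 bp on a NextSeq 500; all 4 libraries carry the same batch label. Per the submitters' processing notes, the build was mRatBN7.2 and the tools named were HTSeq 2.0.2 and STAR 2.7.10b. The annotation, strand setting and treatment of duplicate reads are not given in the labels. The deposited table holds raw counts per gene, per the file headers. The deposited log2 values of normalized data served only as an alternative.

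Counts were scaled by TMM (edgeR 4.0.16, R 4.3.3) on genes with at least 40 counts. The quasi-likelihood test had no residual degrees of freedom with 1 library per group. Ratios carry exact conditional binomial (Clopper-Pearson) intervals at 95%, and log2 ratios a prior count of 0.5 (Python 3.11.15, scipy 1.17.1, numpy 2.4.6, pandas 2.3.3, matplotlib 3.10.9). Without molecular identifiers, reads are not independent molecules.

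The members and lists were chosen with earlier results of these data known. From each list at most 2 higher and 2 lower genes per comparison having 100 or more counts were eligible for naming, in the order of whichever bound lay closer to 1. Promoters came from RefSeq, build GRCr8; protein sequences were not used here. The alternatives tried were scaling by total counts, by DESeq2 1.42.0 or by TMM leaving out mitochondrial and ribosomal protein genes, then other count filters, a ratio past 1.2-fold alone, assumed coefficients of variation of 0.1 and 0.2, a prior count of 2, and the deposited log2 values. Intervals with a coefficient of variation were normal approximations on the log scale, which at low counts can be narrower than the exact intervals.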

Additional observations from a re-analysis of the deposited data

How the results depend on the processing

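Of 120 member ratios under the 3 other scalings, 118 kept their call and the largest shift was 0.04 on the log2 scale. With total counts Jund became lower in TSA + phenamil against the senescent control (-0.10), for 1 lower member in place of 0, and Ier2 in TSA + phenamil against TSA (-0.11), for 2 in place of 1. No call changed direction, and the medians of the members lay between -0.07 and -0.02 under the alternatives tried. With a minimum of 400 counts, which leaves out Fosb and Nr4a1, 1 member was lower in the senescent against the young control and 1 in TSA against the senescent control, and 2 in place of 3 were higher in TSA + phenamil against TSA. With a ratio past 1.2-fold or the deposited log2 values in place of intervals, 2 members were higher in the senescent against the young control, and 2 higher and 2 lower in TSA + phenamil against the senescent control. With a coefficient of variation of 0.1, TSA against the senescent control had 1 lower member, TSA + phenamil 0 higher against the senescent control, and 1 higher and 0 lower against TSA. With 0.2 these were 1, 0, 0 and 0, and the senescent against the young control had 0 higher and 1 lower, Nr4a1. No paired analysis was possible because each group has 1 library, nor could a replicate be left out, and the variation between cultures is unknown. Depth limits Fosb most, with 7 to 29 counts.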

Other observations

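Socs3 had 236 counts in the senescent control, 124 with TSA and 259 with TSA + phenamil. Myc, looked up after its values were seen, was at 0.717 (0.552 to 0.929) in the senescent against the young control and at 1.58 (1.22 to 2.05) in TSA against the senescent control. The NF-kappaB inhibitor gene Tnfaip3, likewise outside the rule for named genes, had 24 counts in the young and 6 in the senescent control, a ratio of 0.252 (0.0842 to 0.632). Plau, the urokinase gene and a known AP-1 target, went from 11 counts in the senescent control to 31 with TSA, a ratio of 3.13 (1.53 to 6.90), and was also outside that rule.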
